A study of Mus musculus with 20 samples.

Results

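A set of 402 genomic intervals of the mouse hypothalamus was examined whose methylation-dependent read count was higher at postnatal day 21 (P21) than on the day of birth (P0) in neurons and lower at P21 in non-neurons. They were chosen by their counts. Each library's counts were divided by its median count over the 15147 intervals with at least 20 reads in all 20 libraries, the scaled counts were averaged per group, and an interval was a member when P21 over P0 was above 1.25 in neurons and below 0.67 in non-neurons. Of the 50782 intervals in the table, 27259 had at least 10 reads in at least 5 libraries, and the 402 members made up 1.47% of these. The age change in neurons, the age change in non-neurons and the difference between them are therefore properties of the choice, and they are described here without a test.

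The 4 groups were neurons at P0, non-neurons at P0, neurons at P21 and non-neurons at P21, all from male mice of the inbred strain C57BL/6, with 5 libraries per group and no treatment. Every library was made from a pool of 2 hypothalami whose nuclei had been sorted by fluorescence for NeuN, a nuclear protein of most mature neurons. Neurons were the nuclei carrying NeuN, and the non-neurons were all nuclei without it, so that they are a mixture of cell types whose shares at each age were not measured. Whether a neuron and a non-neuron library with the same replicate number were sorted from 1 pool is not stated in the labels, and without expression data the sort could not be checked against marker genes. In bulk DNA from sorted nuclei, a change in the methylation of a cell type and a change in the mixture of cell types cannot be told apart.

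DNA methylation in mammals is the addition of a methyl group to cytosine, mostly where a guanine follows. Methyltransferases place the mark, maintenance methylation copies it at cell division, and oxidation by TET enzymes starts its removal. In the brain, patterns are still being laid down after birth, when hypothalamic circuits form and glial cells multiply and mature. The assay used here, methylation-specific amplification followed by sequencing, reads the mark at CCCGGG sites. SmaI first cuts the sites that are unmethylated and leaves blunt ends, and XmaI then cuts the methylated ones and leaves ends to which an adaptor is ligated. Amplification of an interval thus needs methylation of both flanking sites. Its read count rises with that methylation, but it is a relative measure and not a percent of molecules. Levels are given as CPM, the reads per 1000000 on TMM-scaled library sizes, and each interval is named by its coordinates on the mm9 assembly. Neighbouring intervals share the cut site between them. Genes, exons and promoters were not assigned to the intervals.

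Library totals ran from 5663740 to 9998110 reads. Members took a small share of them, and the share differed by group. They held 0.516% to 0.540% of the reads in P0 neurons, 0.433% to 0.507% in P0 non-neurons, 1.10% to 1.13% in P21 neurons but 0.303% to 0.317% in P21 non-neurons. No 2 of these ranges overlapped, but the shares are sums over the counts that chose the members. The rule favours the rise in neurons and the fall in non-neurons, so nothing is read from either. The third principal component of all intervals (4.72% of the variance) separated the P0 neuron replicates 1 to 3 (19.4 to 29.6) from replicates 4 and 5 (-11.4 to -8.89), and the P0 non-neuron replicates likewise (-10.5 to 7.04 against -29.3 to -18.5). The labels give no batch for this split. With only P0 replicates 1 to 3, the median member log2 fold change with age was 1.01 in neurons and -0.87 in non-neurons, and with only replicates 4 and 5 it was 0.93 and -0.80.

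The typical member had a low level at birth in both cell types and its highest level in P21 neurons. Their median level was 2.78 CPM in P0 neurons, 3.03 in P0 non-neurons, 7.98 in P21 neurons but 1.62 in P21 non-neurons. Over all 26679 intervals tested, the medians of the same groups were 8.21, 8.13, 10.1 and 9.20 CPM. In reads, the median member had a mean of 17 per library in P0 neurons, 19.4 in P0 non-neurons, 74.9 in P21 neurons but 12.5 in P21 non-neurons. The mean was under 10 reads for 155, 132, 6 and 182 members in that order, so counting error is large outside P21 neurons.

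The filter on low counts was passed by 376 members, and 26 members were not tested. These 26 had a median of 13.5 reads per library in P21 neurons and between 2.6 and 5.2 in the other groups. Since a weakly covered member could pass the filter through P21 neurons alone, the counts over the 376 are a description and do not stand for all 402. Their mean level was also low, with a median log2 CPM of 2.33 against 3.24 for all tested intervals. With the tested intervals split at the quartiles of their level, 154 of the members fell into the lowest class, 82 and 91 into the next ones and 49 into the highest.

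By construction every member had a higher group mean at P21 in neurons and a lower one in non-neurons. The ratio of P21 to P0 had a median of 1.77 in neurons and 0.546 in non-neurons. In neurons it was above 2 for 163 members, above 4 for 69 and above 10 for 17. In non-neurons it was below 0.5 for 150 members and below 0.25 for 23. The neuron change exceeded the non-neuron change on the log2 scale in 168 of the 402. That count uses the scaling of the rule, and the relative size of the 2 changes depends on the scaling. Under both scalings given next, the neuron median was the greater in size. The median log2 fold change of the tested members was 0.93 in neurons against -0.82 in non-neurons with TMM factors, and 1.13 against -0.60 with library totals.

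Read in the fit over all intervals (edgeR, Benjamini-Hochberg adjusted p under 0.05), the age change in neurons was called upward for 320 of the 376 tested members, beside 31% of all tested intervals. The age change in non-neurons was called downward for 247, beside 25.8%. Both were called for 230 members, beside 1.83%, while 90 had a call in neurons only, 17 in non-neurons only and 39 in neither. The difference of the 2 age changes was called for 332, beside 10.9%. Because the rule used these contrasts, nothing is read from these counts. Both age changes were called for 21.4% of the tested members in the lowest of the level classes, 72.0% in the next, 97.8% in the one after and 100% in the highest. Shares of all tested intervals in each class are not given here, and a call is easier to reach at a higher level. Nothing is read from this order either.

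**Figure D1:**
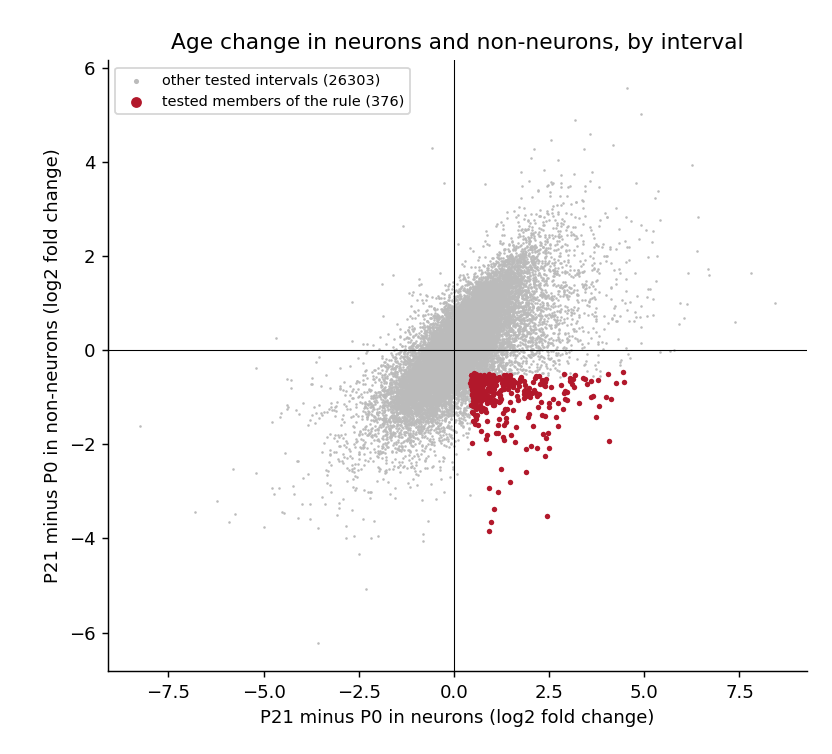
Each point is 1 tested interval, with the log2 fold change from P0 to P21 in neurons on the horizontal axis and in non-neurons on the vertical axis. The 376 tested members (red) lie to the lower right because the rule placed them there, with medians of 0.93 and -0.82, while the other tested intervals (grey) lie mostly along the diagonal.

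The libraries themselves were separated in many members, which the rule favours because it chose the members by the same libraries. The counts that follow are therefore a description. All 5 P21 neuron libraries lay above all 5 P0 neuron libraries in 274 of the 376 tested members, beside 23% of all tested intervals. All 5 P21 non-neuron libraries lay below all 5 P0 non-neuron libraries in 152, beside 18%. At P21 the neurons lay wholly above the non-neurons in 335 members, beside 16.5%. The separation in non-neurons was the least frequent of the 3, and it is the one that rests on the lowest counts.

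At the edge of the rule, the members nearest to the neuron threshold were chr17:25558763-25560957 and chr14:76932733-76933559 with ratios of 1.25 and chr11:59743737-59746161 with 1.26. Just outside lay chr17:56650009-56651704 and chr2:24263346-24265806, also 1.25 after rounding, and chr1:154450927-154453872 at 1.24. At the non-neuron threshold the nearest members were chr16:12093531-12095459 at 0.670, chr3:88169021-88169837 at 0.669 and chr4:128916846-128919153 at 0.669. The nearest intervals outside were chr3:94976692-94977006 and chr10:125403845-125404196 at 0.670 and chr13:9929499-9929971 at 0.671. The members thus have no natural boundary with their neighbours in value.

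Among members with an above-median level, the 2 greatest differences between the age changes were in intervals with no cell type call at birth. The interval chr15:12431036-12432134, 1098 bp long, had 4.82, 3.73, 2.45, 2.90 and 3.17 CPM in the P0 neuron libraries. The P0 non-neurons had 2.59, 5.11, 5.69, 3.23 and 2.69 CPM. At P21 the neurons had 26.7, 38.5, 25.5, 28.2 and 29.1 CPM and the non-neurons 1.67, 2.80, 2.59, 1.80 and 2.92. The P0 groups overlapped, the P21 neurons stood apart from every other library, and the P21 non-neurons overlapped with those of P0. Group means were 3.42 ± 0.913 and 29.6 ± 5.17 CPM in neurons (SD, n = 5 here and below) and 3.86 ± 1.44 and 2.35 ± 0.582 in non-neurons.

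The same form was seen at chr11:118470624-118471090 (466 bp), at a higher level. P0 neurons had 9.47, 5.67, 7.001, 6.83 and 6.19 CPM, and P0 non-neurons 3.50, 7.35, 5.01, 8.30 and 6.99. At P21 the neurons had 58.5, 59.7, 61.0, 61.2 and 51.7 CPM and the non-neurons 3.61, 4.33, 4.43, 2.35 and 4.79. Every P21 neuron library was far above every P0 library, whereas the 2 ages overlapped in non-neurons. At chr1:182824437-182825084 (647 bp), mean levels were 13.2 ± 2.17 CPM in P0 neurons, 13.4 ± 3.05 in P0 non-neurons, 69.9 ± 7.47 in P21 neurons but 8.40 ± 1.43 in P21 non-neurons. At chr2:180946935-180947608 (673 bp) they were 41.7 ± 6.68, 37.5 ± 12.9, 206 ± 25.9 and 23.9 ± 3.69 CPM in the same order. At chr9:56774145-56775136 (991 bp) they were 11.4 ± 0.888, 9.35 ± 1.504, 54.1 ± 3.74 and 5.66 ± 0.723 CPM. In these 5 intervals the gain in neurons carried most of the difference, and none had a cell type call at P0.

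In other members the loss in non-neurons was the greater or an equal part. At chr17:56649500-56650009 (509 bp) the P0 non-neurons had 10.2, 7.19, 8.94, 7.53 and 7.17 CPM and the P21 non-neurons 2.36, 1.96, 1.85, 1.80 and 2.57. Neurons went from 14.99, 10.1, 11.6, 13.3 and 9.36 CPM at P0 to 33.8, 28.1, 38.2, 43.3 and 37.8 at P21. The ages did not overlap in either cell type. At chr9:45354312-45355490 (1178 bp) the P0 non-neurons had 23.4, 16.4, 20.1, 20.8 and 15.8 CPM and the P21 non-neurons 5.42, 7.69, 7.76, 5.40 and 4.91. Its neurons had 12.9, 13.3, 15.8, 14.01 and 13.6 CPM at P0 and 39.5, 45.8, 37.9, 48.2 and 42.2 at P21. Again no library of one age reached the range of the other, and the log2 fold changes with age were of like size, 1.62 ± 0.13 in neurons and -1.63 ± 0.15 in non-neurons (± standard error).

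The 5 steepest losses in non-neurons among members above the median level included both of these and 3 intervals with a modest gain in neurons. At chr7:141862937-141863836 (899 bp) non-neurons had 10.3 ± 2.15 CPM at P0 and 2.58 ± 0.819 at P21, and neurons 16.4 ± 2.23 and 22.9 ± 1.60. At chr1:182336760-182337694 (934 bp) the non-neurons had 15.4 ± 3.17 and 5.17 ± 0.693 CPM and the neurons 17.95 ± 2.48 and 26.3 ± 1.86. At chr2:167422417-167422912 (495 bp) the non-neurons had 36.1 ± 7.07 and 12.7 ± 2.45 CPM and the neurons 71.0 ± 3.67 and 102 ± 7.66. The neuron ratios of these 3 were 1.28, 1.35 and 1.32, close to the threshold of the rule.

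**Figure D2:**
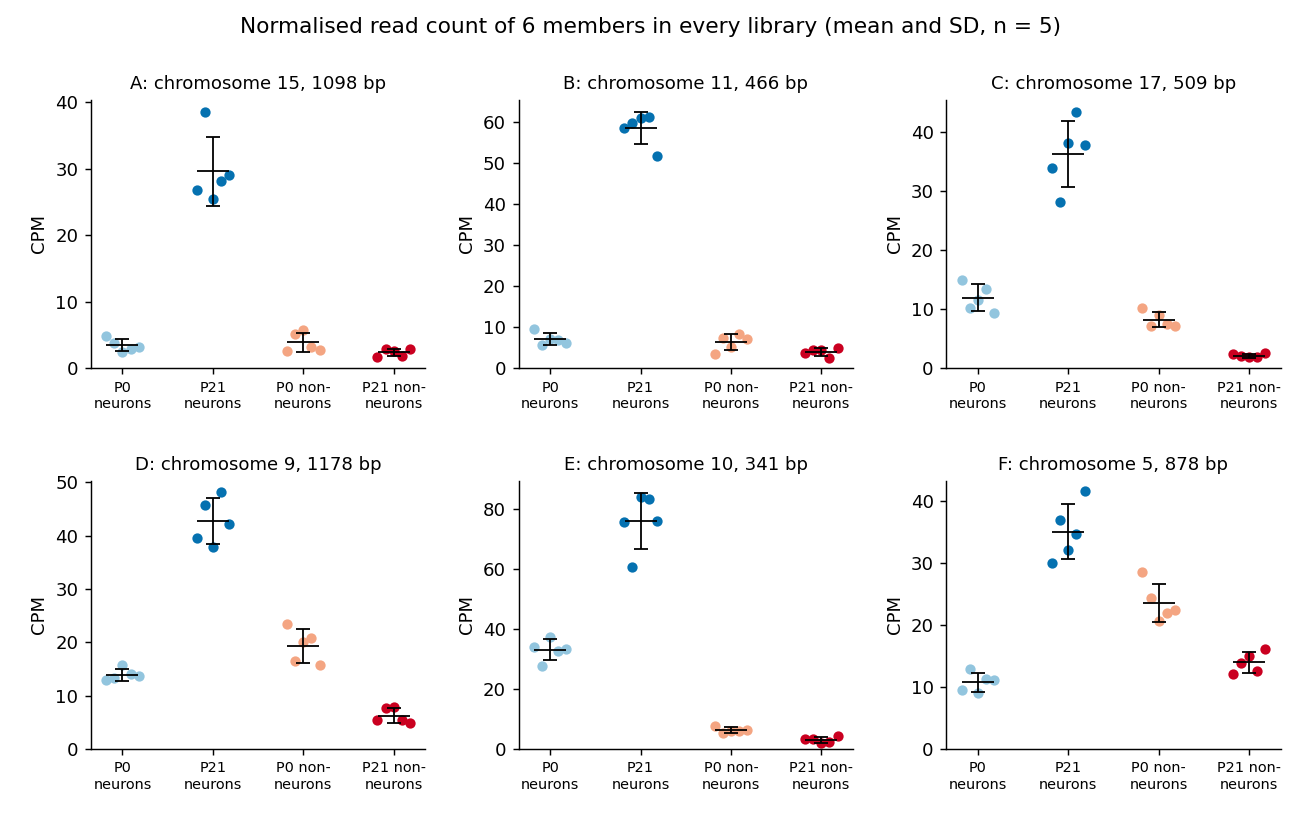
CPM of 6 members in every library, by group, with the mean and SD (n = 5). A is chr15:12431036-12432134, B chr11:118470624-118471090, C chr17:56649500-56650009, D chr9:45354312-45355490, E chr10:41970966-41971307 and F chr5:118287886-118288764; the P21 neurons are the highest group in all 6, and the order of the 2 cell types at P0 differs between panels.

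The best-covered members changed by less, with neuron ratios between 1.27 and 1.75. The highest mean level was at chr9:54485932-54486611 (679 bp). Its P0 neurons had 249.2, 250.2, 290.2, 249.8 and 244.9 CPM and its P21 neurons 378.4, 277.9, 390.6, 408.2 and 339.7. The non-neurons had 196.2, 191.8, 220.1, 216.7 and 190.6 CPM at P0 and 93.2, 86.2, 127.4, 111.0 and 109.2 at P21. The ages overlapped in neurons, where P21 replicate 2 lay below P0 replicate 3, and not in non-neurons. The members chr4:114534650-114535563, chr4:153465630-153466633, chr4:135260204-135261224 and chr13:115266827-115267694 followed in level, with P21 neuron means of 335 ± 51.5, 263 ± 12.5, 249 ± 15.6 and 225 ± 21.5 CPM. Their P0 neuron means were 228 ± 28.2, 177 ± 10.5, 180.4 ± 24.6 and 118 ± 6.23 CPM, so that a gain of this size stood beside a high level at birth.

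Across members the neuron ratio was greater where the starting level was lower, an order that the choice of members favours. A low P0 mean is the denominator of the ratio, and a member with few reads at P0 could pass the read minimum through P21 neurons alone. Nothing is therefore read from this order. The 126 members with a neuron ratio of 1.25 to 1.5 had median levels of 11.4 CPM in P0 neurons and 16.2 in P21 neurons. For the 113 members between 1.5 and 2 these were 4.92 and 8.77 CPM, and for the 94 between 2 and 4 they were 2.49 and 7.72. The 69 members above 4 had 0.664 and 4.94 CPM. The ratio in non-neurons varied little along this order, with medians of 0.567, 0.568, 0.510 and 0.492.

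Several members at the ends of the distributions were singled out after their values were seen. The highest neuron ratio, 20.3, belonged to chr8:107870642-107871037 (395 bp), where P0 neurons had 0.467 ± 0.298 CPM and P21 neurons 10.4 ± 2.32. Its non-neurons stayed near the detection limit at both ages, with 0.608 ± 0.469 and 0.367 ± 0.175 CPM. At chr10:98666309-98667031 (722 bp), with a ratio of 20.02, 27 reads in all P0 neuron libraries stood against 919 in those of P21, and the non-neurons had 6 and 5 reads. The non-neuron change of such a member rests on a handful of reads. The only member without a read in P21 non-neurons was chr3:122123409-122124091 (682 bp), whose P21 neurons had 71 reads and 1.51 ± 0.142 CPM, at least 19.2-fold higher than the 0.0784 CPM that 3 reads over the whole P21 non-neuron group would give. A floor of this kind covers counting error only, since the reads carry no molecular identifiers.

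The comparison of neurons with non-neurons averaged over both ages does not stand apart from the rule. It is the mean of the P0 and P21 differences, and the rule makes the P21 difference exceed the P0 difference, so an interval alike in both cell types at birth is placed above 0. Its values are therefore a description too, and no support is taken from them. Neurons were called higher in 292 of the 376 tested members (edgeR, adjusted p under 0.05), beside 19.4% of all tested intervals, and lower in 6, beside 13.2%. The median log2 fold change was 1.09 over the members and -0.03 over all tested intervals, and it was above 0 in 354 members and below 0 in 22. Weakly covered members could also pass the filter through P21 neurons, which favours the same direction. Of the 285 members without a call at P0, 222 were called higher in this average, while all 63 called higher at P0 were. By level, 93 of 154 were called higher in the lowest class (60.4%) and 45 of 49 in the highest (91.8%), without the shares of all tested intervals in these classes.

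At the 2 ages the difference was unlike. At P0 the median log2 difference between neurons and non-neurons was 0.05 over the members, with 63 of 376 called higher in neurons, beside 6.92% of all tested intervals, 28 called lower, beside 2.87%, and 285 without a call. At P21 the median was 2.05, with 349 called higher, beside 20.8%, and 0 called lower, beside 15%. At an unadjusted p under 0.05 there were 139 members with a difference in either direction at P0 and 358 at P21, in the same edgeR fit. The share of all tested intervals at this unadjusted threshold is not given here, so these numbers cannot be set against a background. Both ages share their libraries with the rule, which favours low P0 neurons and high P21 neurons, so these counts describe the members and support nothing further.

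By their calls at birth and at P21 the tested members fell into a few classes. In 265, or 70.5%, there was no call at P0 and neurons were higher at P21, a class that held 14.4% of all tested intervals. Neurons were higher at both ages in 63 members (16.8%, against 5.94% of all tested intervals). They were called lower at P0 and higher at P21 in 21 members, beside 0.506% of all tested intervals. A further 7 were called lower at P0 only, beside 0.933% of all tested intervals, and 20 had no call at either age, beside 62.3%. No member had the opposite crossing, which the rule does not allow in group means.

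Members already higher in neurons at P0 were the better covered ones. The 63 had median levels of 21.5 CPM in P0 neurons, 10.8 in P0 non-neurons, 36.2 in P21 neurons but 7.17 in P21 non-neurons. For the 285 without a call at P0 the same medians were 2.40, 2.50, 6.10 and 1.29 CPM. Lower coverage makes a call at P0 harder to reach, so the absence of a call in these members does not show that the cell types were alike at birth. The P0 neurons lay wholly above the P0 non-neurons in 54 tested members, beside 6.63% of all tested intervals, and wholly below them in 26, beside 2.76%.

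Among members above the median level, the 5 widest cell type differences averaged over both ages were in intervals already called higher in neurons at birth. At chr10:41970966-41971307 (341 bp) P0 neurons had 33.9, 27.6, 37.5, 32.8 and 33.4 CPM and P0 non-neurons 7.76, 5.43, 6.10, 5.84 and 6.27. P21 neurons had 75.7, 60.8, 84.2, 83.4 and 76.0 CPM and P21 non-neurons 3.19, 3.21, 1.97, 2.21 and 4.21. No 2 of the 4 groups overlapped. The log2 fold change averaged over ages was 3.53 ± 0.10 (standard error, edgeR adjusted p = 1.22e-27). The 5 intervals were picked by this same contrast, which the rule also raises, so their p values describe them and support nothing further.

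The other members of this kind were chr11:115964886-115965498, chr8:75170309-75171660, chr17:56649500-56650009 and chr6:121474557-121474833, with averaged log2 fold changes of 2.43 ± 0.12, 2.39 ± 0.10, 2.30 ± 0.12 and 2.23 ± 0.10. Their edgeR adjusted p values lay between 1.24e-22 and 1.00e-19, with the same limit. At chr8:75170309-75171660 (1351 bp) the P0 means were 35.2 ± 3.41 CPM in neurons and 10.1 ± 2.97 in non-neurons, while those at P21 were 53.7 ± 6.96 and 6.74 ± 0.730. At chr6:121474557-121474833 (276 bp) they were 22.9 ± 1.94 and 9.91 ± 2.16 CPM at P0 and 39.7 ± 3.95 and 4.11 ± 0.747 at P21. In each of these the gap at P0 widened from both sides. The highest log2 difference at P0, chosen after its values were seen, was at chr14:65993839-65995535, with 4.90 ± 1.29 CPM in P0 neurons beside 0.646 ± 0.524 in P0 non-neurons.

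In the 28 members called lower in neurons at P0, the age changes ran against the difference present at birth, a direction that the rule fixes. Their median levels were 9.47 CPM in P0 neurons beside 16.9 in P0 non-neurons, then 23.1 in P21 neurons but 7.601 in P21 non-neurons. In these medians the 2 cell types had changed places, while by the calls at P21 neurons were higher in 21 and 7 had no call. Averaged over ages, the difference was called higher in neurons in only 7 of the 28 members.

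A crossing member with every library in its place was chr5:118287886-118288764 (878 bp). P0 neurons had 9.47, 12.8, 8.93, 11.3 and 11.2 CPM and P0 non-neurons 28.5, 24.3, 20.6, 21.98 and 22.4. P21 neurons had 30.02, 36.9, 32.1, 34.6 and 41.6 CPM and P21 non-neurons 12.1, 13.8, 15.02, 12.6 and 16.1. At each age the cell types did not overlap, in opposite order. Averaged over ages, its log2 fold change was 0.10 ± 0.09 (edgeR adjusted p = 0.438), so a comparison that ignored age would not have called it.

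Further members crossed in the same way at other levels. At chr4:107353527-107354171 (644 bp) P0 means were 5.32 ± 1.27 CPM in neurons and 10.2 ± 0.527 in non-neurons, and P21 means 24.3 ± 3.18 and 5.12 ± 0.575. At chr3:118137935-118138312 (377 bp) they were 3.55 ± 1.06 and 6.55 ± 0.799 CPM at P0 and 10.1 ± 1.21 and 1.85 ± 0.403 at P21. The interval chr9:45354312-45355490, given above, also crossed. At chr10:24431157-24431578 (421 bp) and chr17:86148154-86148372 (218 bp), P0 neurons had 0.904 ± 0.289 and 1.01 ± 0.558 CPM beside 2.44 ± 0.807 and 2.72 ± 0.628 in P0 non-neurons. Their P21 neurons reached 5.26 ± 1.39 and 7.03 ± 1.83 CPM. The crossing members chr2:164989979-164992438 and chr15:85338210-85338348 had group means under 2 CPM throughout.

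Of the 6 members called lower in neurons over both ages, 3 were above the median level. At chr12:27219286-27219692 (406 bp) P0 neurons had 11.2 ± 1.65 CPM and P0 non-neurons 28.5 ± 1.49, and at P21 they had 27.4 ± 4.36 and 16.8 ± 2.00. Its averaged log2 fold change was -0.32 ± 0.09 (edgeR adjusted p = 0.00432). For chr15:79885852-79886353 and chr8:94149655-94150044 it was -0.22 ± 0.07 and -0.21 ± 0.08, with edgeR adjusted p = 0.0146 and 0.0290. With P0 replicates 4 and 5 only, all 3 missed the threshold (adjusted p between 0.144 and 0.371), and chr15:79885852-79886353 also missed it with P0 replicates 1 to 3 only (adjusted p = 0.0648). For chr8:94149655-94150044 the call was also lost without the filter on low counts (adjusted p = 0.0623) and on leaving out any 1 of 5 libraries: P0 neuron replicate 1, P0 non-neuron replicate 2, P21 neuron replicate 4 and P21 non-neuron replicates 1 and 4, with adjusted p from 0.0535 to 0.0705. Next in order, chr15:72437706-72438497 and chr4:139776553-139776934 had small positive values of 0.29 ± 0.09 and 0.34 ± 0.10 (edgeR adjusted p = 0.0139 and 0.00696), which were 0.15 and 0.19 under upper-quartile scaling (adjusted p = 0.210 and 0.111) and 0.28 and 0.31 with P0 replicates 1 to 3 only (adjusted p = 0.0580 and 0.0577). The former also missed the threshold with the length trend removed (0.17, adjusted p = 0.125) and with P0 replicates 4 and 5 only (0.31, adjusted p = 0.0835). A member below the median level and chosen after its values were seen, chr14:25436787-25437909 (1122 bp), had the widest gap in this direction at birth. It held 1.12 ± 0.752 CPM in P0 neurons beside 13.05 ± 1.89 in P0 non-neurons, and at P21 6.58 ± 1.01 and 7.51 ± 1.31, where the 2 cell types overlapped.

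**Figure D3:**
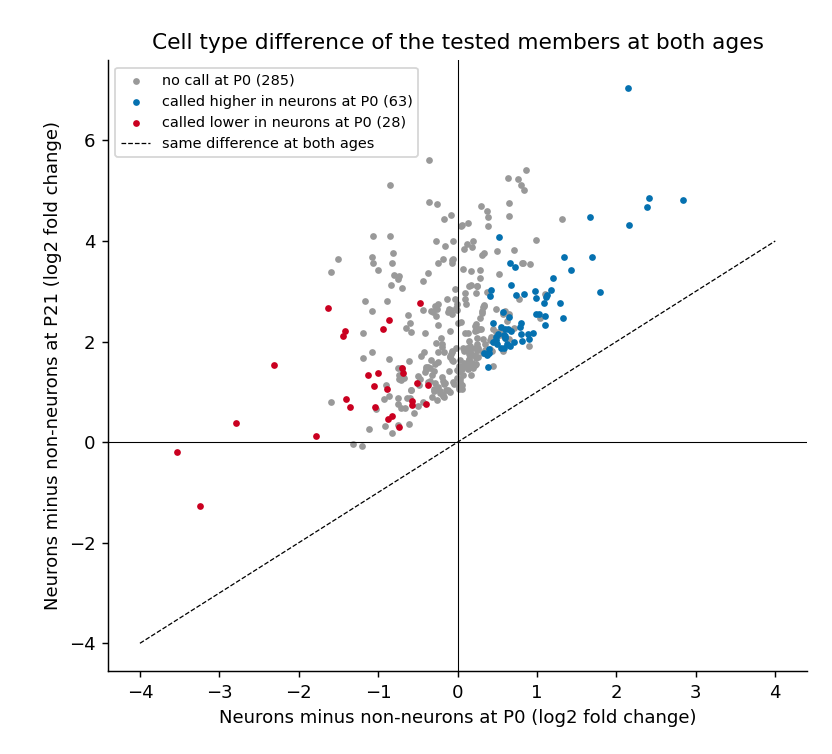
Each point is 1 of the 376 tested members, with the log2 difference between neurons and non-neurons at P0 on the horizontal axis and at P21 on the vertical axis, coloured by the call at P0. The points lie above the dashed line of equal difference, as the rule requires, and 372 of them lie above 0 at P21 while 202 lie above 0 at P0.

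The pattern could be read in libraries that had not chosen the members by applying the rule to the libraries of 4 replicate numbers and reading the fifth. The rule then found 368, 396, 418, 408 and 359 members with replicate 1, 2, 3, 4 and 5 left out, of which 287, 301, 292, 292 and 273 were among the 402. In the 4 left-out libraries, the P21 neuron value exceeded the P0 neuron value and the P21 non-neuron value was below the P0 non-neuron value in 73.1%, 71.5%, 65.6%, 66.4% and 70.8% of those members. Among all kept intervals the same pattern was present in 14.1%, 13.4%, 12.4%, 10.5% and 12.1%. Both thresholds of the rule were met by between 38.5% and 44.6% of the members and by between 2.52% and 3.43% of all kept intervals.

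How often a member kept the pattern in unseen libraries depended on its level. Members above the median of tested intervals by mean level over all 20 libraries showed it in 91.2% to 95.6% of cases across the 5 left-out numbers, and those below it or not tested in 48.9% to 59.9%. The median log2 ratio in the left-out libraries lay between 0.64 and 0.84 in neurons and between -0.72 and -0.62 in non-neurons. For all kept intervals it lay between -0.13 and 0.02 in neurons and between -0.11 and 0.05 in non-neurons. Replicates share the sort, the assay and the table, so that this is a measure of repeatability within the study.

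**Figure D4:**
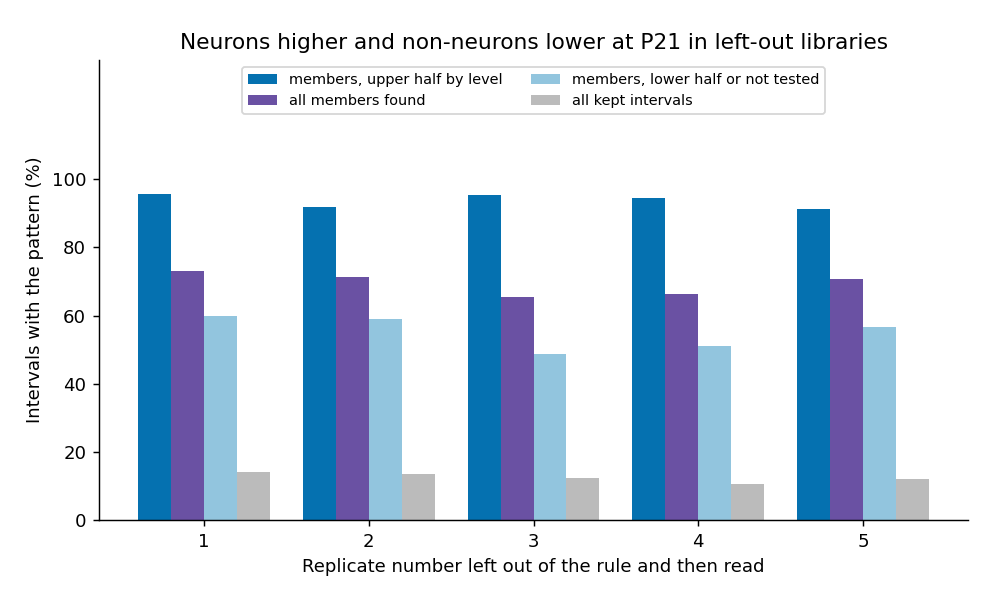
For each replicate number left out of the rule, the bars give the percent of intervals in which neurons were higher and non-neurons lower at P21 in the left-out libraries. Well-covered members kept the pattern in over 90% of cases, all members found in 65.6% to 73.1%, and all kept intervals showed it in 10.5% to 14.1%.

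Members lay next to each other more often than their share of the table. A touching interval, one that shares a cut site, was listed for 264 of the 402 members. Of the 231 kept intervals that touched a member, 27.3% were members themselves, while 1.47% of all kept intervals were. There were 30 runs of touching members, 27 of 2 and 3 of 3, holding 63 members. The methylation state of the shared site enters the counts of both neighbours, so touching members are not separate observations. Of all members, in runs or not, 5 had the next member within 10000 bp without touching it and 24 within 100000 bp. The median gap to a next member that did not touch was 2400965 bp. On chromosome 4, the runs from 107346444 to 107348815 and from 107353138 to 107356339 lay within 10000 bp of each other.

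In the longest runs the members differed in level and in how firmly they were measured. On chromosome 11 a run from 5049661 to 5051885 consisted of intervals of 497, 67 and 1660 bp. The first, chr11:5049661-5050158, had 96.2 ± 5.94 CPM in P0 neurons and 138 ± 11.4 in P21 neurons, and 55.2 ± 4.74 and 30.9 ± 5.70 in non-neurons. The short middle one, chr11:5050158-5050225, had 15.5 ± 0.556 and 21.8 ± 2.69 CPM in neurons and 8.92 ± 1.95 and 5.35 ± 1.22 in non-neurons. The last, chr11:5050225-5051885, had 11.1 ± 2.31 and 17.3 ± 2.20 CPM in neurons and 4.51 ± 0.834 and 2.54 ± 0.473 in non-neurons. The levels fell along the run while the neuron ratios stayed close together, at 1.31, 1.28 and 1.44.

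A run of 3 on chromosome 4, from 107353138 to 107356339, held crossing members at its start. At chr4:107353138-107353527 (389 bp) P0 means were 8.21 ± 2.40 CPM in neurons and 15.3 ± 1.71 in non-neurons, and P21 means 16.0 ± 2.09 and 7.69 ± 0.565. Next to it lies chr4:107353527-107354171, described above. The third interval, chr4:107354171-107356339 (2168 bp), had 2.74 ± 0.648 and 3.28 ± 1.13 CPM at P0 and 4.65 ± 0.538 and 2.14 ± 0.663 at P21, with no call at P0. The third run of 3, on chromosome 18 from 38756856 to 38761756, was weakly covered. Its members chr18:38756856-38759816, chr18:38759816-38760401 and chr18:38760401-38761756 had 0.619 ± 0.306, 1.26 ± 0.274 and 0.679 ± 0.446 CPM in P0 non-neurons and 0.253 ± 0.295, 0.868 ± 0.505 and 0.284 ± 0.306 in P21 non-neurons. Their neurons went from 1.35 ± 0.591, 1.604 ± 0.860 and 0.489 ± 0.243 CPM to 2.13 ± 0.633, 11.8 ± 1.91 and 1.61 ± 0.253. The last of them was not tested, neither of the others had a call in non-neurons, and only the middle one had a call in neurons.

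On chromosome 9, chr9:54485932-54486611 is followed by chr9:54486611-54488945 (2334 bp), which went from 48.6 ± 5.27 to 73.4 ± 6.69 CPM in neurons and from 41.2 ± 1.87 to 24.99 ± 3.01 in non-neurons. On chromosome 4, chr4:153465630-153466633 is followed by chr4:153466633-153466704 (71 bp), which went from 21.4 ± 2.12 to 29.9 ± 3.13 CPM and from 20.7 ± 1.45 to 13.8 ± 0.767.

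Of the 270 non-members that touched a member, 167 were tested. The difference of their age changes was called positive in 82 (49.1%), beside 10.9% of all tested intervals, and negative in 0, beside 3.24%. The median log2 difference was 1.01, against -0.05 over all tested intervals. In neurons the age change was called upward in 91 of them (54.5%, against 31% of all tested intervals) and downward in 16 (9.58%, against 26.3%). In non-neurons it was called downward in 54 (32.3%, against 25.8%) and upward in 14 (8.38%, against 28.5%). Both a called gain in neurons and a called loss in non-neurons were present in 12, beside 1.83% of all tested intervals. Opposite signs, a gain in neurons and a loss in non-neurons, were present in 72 (43.1%), while 11.8% of the 12124 tested intervals that touch any tested interval had them. For comparison, 1493 intervals touched a non-member that was itself called for a positive difference, and in them it was called in 43.7%, with opposite signs in 26.7%. The difference between these shares was not tested.

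Some touching neighbours shared only a single side of the pattern. The member chr3:88169021-88169837 (816 bp) had 60.4 ± 7.27 CPM in P0 neurons and 87.0 ± 10.5 in P21 neurons, and 58.6 ± 7.24 and 40.2 ± 2.68 in non-neurons. Its neighbour on the lower-coordinate side, chr3:88168167-88169021 (854 bp), had 87.0 ± 9.61 and 92.6 ± 5.99 CPM in neurons and 68.2 ± 5.25 and 30.1 ± 1.28 in non-neurons. On the other side, chr3:88169837-88170846 (1009 bp) had 9.21 ± 1.93 and 37.8 ± 2.67 CPM in neurons and 9.92 ± 0.563 and 9.91 ± 0.978 in non-neurons. The first of these shows the loss in non-neurons without a gain in neurons, the other the gain in neurons without a loss in non-neurons. The member between them, which shares a cut site with each, shows both.

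Neighbours of other named members differed among themselves. The interval chr9:56775136-56776116 (980 bp), next to the member chr9:56774145-56775136, had 1.57 ± 0.167 and 10.3 ± 0.986 CPM in neurons and 0.654 ± 0.265 and 0.677 ± 0.303 in non-neurons, a gain in neurons only. Next to chr17:56649500-56650009, the interval chr17:56650009-56651704 (1695 bp) had 28.4 ± 2.82 and 38.6 ± 1.63 CPM in neurons and 23.1 ± 2.01 and 9.62 ± 1.25 in non-neurons. It has the full pattern and fell outside the rule by its neuron ratio alone, which was just under the threshold. Others lacked the pattern. The interval chr4:128916174-128916846 (672 bp), next to chr4:128916846-128919153, was lower at P21 in both cell types, with log2 fold changes of -1.88 in neurons and -1.22 in non-neurons. The interval chr17:25557020-25558763 (1743 bp), next to chr17:25558763-25560957, was higher at P21 in both, with 0.73 and 0.42.

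The likeness of non-members to members was seen mainly at short distances. The median log2 difference of the age changes was 1.01 in the 167 touching intervals, 0.49 in 84 that lay up to 2000 bp away and 0.10 in 196 between 2000 and 10000 bp. Beyond that it was 0.03 in 1035 intervals up to 50000 bp away, and -0.04, -0.04 and -0.08 in the farther classes. The share called positive went from 49.1% over 35.7%, 15.8%, 13.8%, 12.1% and 10.6% to 8.03% in the 14950 intervals over 1000000 bp away. Nearby intervals share library, depth and often a cut site, and no test was made of this order.

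**Figure D5:**
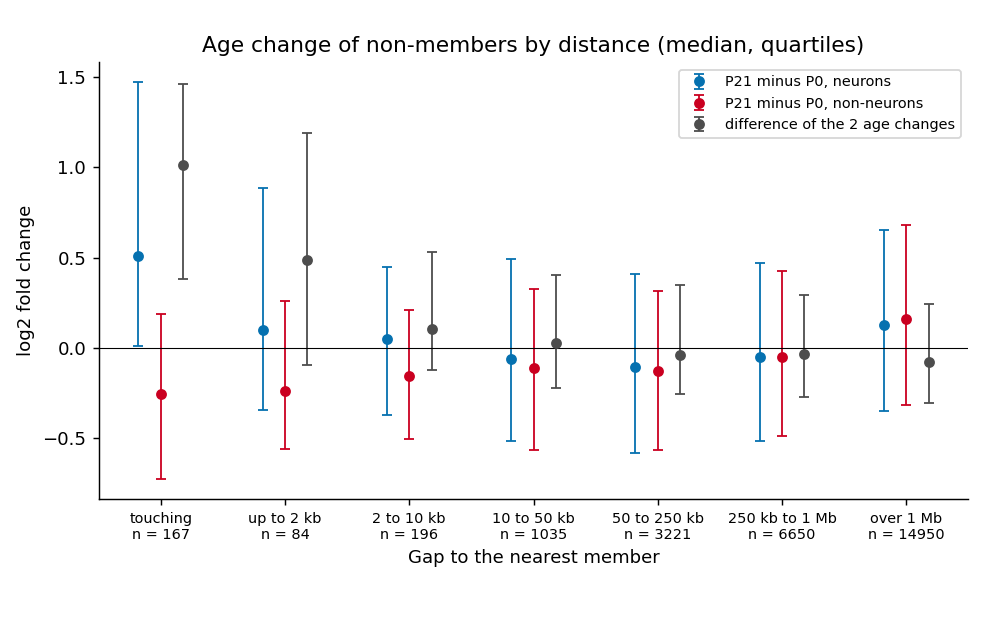
Medians (points) and quartiles (bars) of the log2 fold change of tested non-members, by the gap to the nearest member, for the age change in neurons, the age change in non-neurons and the difference of the 2. The difference has a median of 1.01 in touching intervals and of 0.10 at 2 to 10 kb.

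Members were shorter than the intervals they were drawn from, with a median length of 870 bp against 1194 bp, and ranged from 64 to 2960 bp. The class from 401 to 800 bp held 110 members, or 27.4%, and 16.8% of all kept intervals. In the shortest class, 60 to 200 bp, 19 of 2308 kept intervals were members (0.823%), and in the longest, 2501 to 3000 bp, 19 of 3139 (0.605%). Interval length also moved with the age change of all intervals. The median log2 fold change of all tested intervals of 401 to 800 bp was -0.32 in neurons and -0.34 in non-neurons, so in this class a loss in non-neurons was common and a gain in neurons was not. With a length trend removed from each library, the rule found 404 intervals, 261 of them among the 402.

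By chromosome, 47 members lay on chromosome 4, which held 11.7% of the members and 8.16% of the kept intervals. Of the kept intervals of chromosome 4, 2.11% were members, and the highest such share was 2.16% on chromosome 18 (15 of 694). On chromosome 16 there were 15 of 747 kept intervals (2.01%), on chromosome 17 there were 14 of 1418 (0.987%), on the X chromosome 3 of 606 (0.495%), and on the Y chromosome 0 of 13. Touching members are counted separately in these shares.

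The opposite rule, a neuron ratio below 0.67 with a non-neuron ratio above 1.25, found 148 intervals where the rule itself found 402. The order was the same under the other scalings tried, with 452 against 112 under TMM, 471 against 113 under RLE (the size factors of DESeq2), 358 against 119 with library totals and 376 against 163 with upper-quartile factors. An imbalance in this direction was present over all tested intervals too. The difference of the age changes was called positive in 10.9% of them and negative in 3.24%. Which intervals were members depended on the scaling, however. Of the 402, 367 were found under TMM, 400 under RLE and 349 under upper-quartile factors, but only 216 with library totals, which moved the median age change of all tested intervals by 0.20 (neurons) and 0.22 (non-neurons) on the log2 scale.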

How the data were processed

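DNA methylation was measured in 20 libraries of sorted hypothalamic nuclei, 5 in each of 4 groups (P0 and P21, neurons and non-neurons), which the labels call biological replicates. The authors deposited 1 table of raw read counts per SmaI/XmaI interval, of 60 to 3000 bp; the unit was inferred from the values, which are whole and sum to different totals. Per the submitters' processing notes, the tools were Bowtie 0.12.9, cutadapt and FastQC 0.10.1, on the mm9 build. The counting method, and any treatment of multiply mapping reads, is not given in the sources used, so intervals with near-identical copies are uncertain. Table columns were matched to libraries through their age, replicate number and letter (N, or G for glia as in the series title), leaving 0 columns of other samples. The G column of an age was taken as its non-neurons.

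Members were found with the rule given in the report, computed from the counts. The members, the lists and the tests were chosen with earlier results of these data known. The test across intervals used edgeR 4.0.16 in R 4.3.3: filterByExpr (minimum count 10, total at least 15, a CPM above 1.42 in at least 5 libraries) kept 26679 intervals, sizes were scaled by TMM, and glmQLFit (robust) with 1 mean per group was followed by glmQLFTest, with Benjamini-Hochberg adjustment over all 26679 and a threshold of 0.05. The biological coefficient of variation was 13.8%. Standard errors are the log2 fold change divided by the square root of F. The code was tested on simulated counts. On the log2 scale, ratios of the rule lay below the TMM-based fold changes by 0.12 in neurons and 0.04 in non-neurons.

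The intervals named are: the 6 members with the greatest difference of age changes, the 5 with the highest age change in neurons and the 5 with the lowest in non-neurons (all above the median level); the 5 of highest level; the 5 highest and 5 lowest called cell type differences averaged over ages, above the median level; the 5 longest runs of touching members; the 8 crossing members with the greatest difference of age changes; and the 3 nearest to each threshold on either side. Others are said to have been chosen after their values were seen, or touch a named member. Alternatives were other scalings (RLE, upper quartile, totals), filters, DESeq2 1.42.0, limma-voom (limma 3.58.1), removal of a length trend (lowess, span 0.2), a replicate block, subsets of the P0 libraries and leaving out each library. Plots were drawn with matplotlib 3.10.9. Sequences and gene annotation were not used here.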

Additional observations from a re-analysis of the deposited data

Results flagged for a closer look

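Among the 53 named intervals, 10 of 212 groups of 5 libraries had 1 library apart from the others by Dixon's criterion (0.71 for 5 libraries), close to the 1 in 20 that chance gives. In neurons at P21, chr15:12431036-12432134 had 38.5 CPM in replicate 2 with the others at 25.5 to 29.1, and chr11:118470624-118471090 had 51.7 in replicate 5 with the others at 58.5 to 61.2. At chr4:114534650-114535563, replicate 2 of the P21 neurons had 244 CPM with the others at 349.5 to 365, and replicate 3 of the P0 neurons had 277 with the others at 203 to 223. Other P0 neuron libraries that stood apart were replicate 3 at chr2:180946935-180947608 (53.2 CPM, others 35.7 to 40.5), replicate 3 at chr9:54485932-54486611 (290 CPM, others 245 to 250.2) and replicate 2 at chr4:135260204-135261224 (224 CPM, others 166 to 173). In P0 non-neurons they were replicate 1 at chr4:107353527-107354171 (11.1 CPM, others 9.84 to 10.03), replicate 1 at chr2:167422417-167422912 (48.3 CPM, others 30.9 to 35.7) and replicate 3 at chr4:139776553-139776934 (34.0 CPM, others 23.6 to 26.6).

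By the interaction term in edgeR, the age change differed between neurons and non-neurons in 332 tested members, a direction that the rule fixes. It also differed in 82 of the 167 tested non-members that share a cut site with a member. Of all tested intervals, 10.9% were called in this direction.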

How the results depend on the processing

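The number of members depends on the filter and on the thresholds. Without a filter on low counts the rule found 1482 intervals, and with ratios above 1.5 and below 0.5 it found 114. The other settings found between 298 (at least 20 reads in 5 libraries) and 518 (P0 replicates 1 to 3 only, 333 of them among the 402), and with P0 replicates 4 and 5 only it found 414, of which 287 were among the 402. Leaving out 1 library or 1 replicate number gave 359 to 440.

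With P0 replicates 4 and 5 only, 32 members were called higher in neurons at P0, beside 2.51% of all tested intervals. In this setting 11 were called lower, beside 0.941%, and 9 crossed over, beside 0.173%. Fewer libraries stand behind these counts. With all libraries, the shares of all tested intervals were 6.92%, 2.87% and 0.506% in the same order. The ranges when 1 library was left out are given with the range of shares of all tested intervals in brackets. Members called lower in neurons averaged over ages numbered 6 to 10 (11.7% to 13.4%), with 10 without P0 neuron replicate 4 and 10 without P0 non-neuron replicate 3. Higher in neurons averaged over ages were 289 to 304 (18.4% to 19.3%). At P0, 57 to 66 were higher (5.79% to 7.21%) and 24 to 33 lower (2.40% to 3.01%), and at P21 344 to 361 were higher (19.5% to 20.8%). Age in neurons was called for 304 to 332 (29.0% to 31.4%) and age in non-neurons for 235 to 257 (23.9% to 26.0%). The interaction was called for 324 to 345 members and for 74 to 82 touching non-members (9.91% to 10.8%). Crossing members numbered 17 to 24 (0.435% to 0.515%).

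Some averaged cell type differences, none of them called, changed sign: chr4:107353138-107353527 (0.08) was -0.059 with upper-quartile factors, -0.025 with P0 replicates 1 to 3 only and between -0.011 (without P0 neuron replicate 5) and 0.124 when 1 library was left out. With P0 replicates 1 to 3 only, chr2:164989979-164992438 (0.51) was -0.035, and with P0 replicates 4 and 5 only chr15:85338210-85338348 (-0.39) was 0.065. With upper-quartile factors chr5:118287886-118288764 (0.10) was -0.042 and chr17:25558763-25560957 (0.11) was -0.029, and with the length trend removed the former was -0.032. The causes were not tested. The edge member chr11:59743737-59746161 (0.56, edgeR adjusted p = 0.0405) lost its call under 4 alternatives (library totals, upper-quartile factors, limma-voom, P0 replicates 1 to 3 only) and on leaving out any 1 of 10 libraries: P0 neuron replicates 4 and 5, P0 non-neuron replicates 1 to 3, P21 neuron replicates 2 and 5 and P21 non-neuron replicates 1, 4 and 5 (adjusted p 0.0527 to 0.161). Over all named intervals and settings, 1527 values kept their side of the threshold, 32 lost it and 10 gained it.

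Within an age, the deviations of same-numbered neuron and non-neuron libraries had correlations of 0.066 to 0.263 at P0 and 0.002 to 0.399 at P21. They were over 0.1 in 4 pairs at P0 and in 2 at P21. Between the ages of a cell type they ran from -0.10 to 0.18. These values do not settle whether the numbers pair neurons with non-neurons, and the main fit did not pair them. With a replicate block 296 members were higher in neurons averaged over ages, beside 20.6% of all tested intervals, and 6 lower, beside 14.6%. At P0, 67 were higher, beside 8.09%, and 28 lower, beside 3.33%. At P21, 349 were higher, beside 21.7%.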
